A study of Mus musculus with 11 samples.

Results

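*Sostdc1* and the genes of its receptors *Lrp4*, *Lrp5* and *Lrp6* were measured by RNA-sequencing in maxillary molar tooth germs at embryonic day 14.5 (E14.5), the cap stage. These 4 genes were taken by symbol from the 16755 genes listed, with earlier results on *Sostdc1* in these data known. Sostdc1 (also called ectodin, Wise or USAG-1) is a secreted protein that binds BMP ligands and also binds Lrp4, Lrp5 and Lrp6. Lrp5 and Lrp6 sit beside Frizzled receptors in the cell membrane and pass on canonical Wnt signals, which Sostdc1 can block. Lrp4 is a related protein that binds Sostdc1 and also serves as the agrin receptor at the neuromuscular junction. In mice, loss of *Sostdc1* is known to give extra teeth in the diastema and fused molars.

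The libraries fall into 3 genotypes on a C57BL/6 background. The wild-type group (*Cilk1*+/+) has 4 libraries. The *Cilk1*-/- group has 4 libraries and lacks exon 6 of *Cilk1*, a kinase gene of the primary cilium, in all cells. The compound mutant group (*Cilk1*-/-;PCS1-MRCS1△/△) has 3 libraries and carries the same *Cilk1* deletion together with a 70 kb deletion from PCS1 to MRCS1, a region that holds *Shh* enhancers. A PCS1-MRCS1△/△ group with intact *Cilk1* was not analysed here, so the effect of the enhancer deletion can be read only on the *Cilk1*-/- background. At this age, the paper describes the cap-stage germ of wild type as the first molar. In *Cilk1*-/- it describes an extra diastema tooth at that stage and a first molar still in bud. Differences between genotypes may thus also hold differences in tooth and stage, which were not tested. Each replicate holds n = 6 (whether germs or embryos is not stated), and nothing says that replicates came from separate litters, so p-values measure the spread between these libraries.

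Values are on the deposited scale, log2(normalized value + 1), on which the fold change of a low gene is understated. The normalized value is probably FPKM, which is set per length of transcript, but its unit is not stated, so orders of level between genes hold only if it is. Counts were not used here and the depth per library is unknown. A gene was called different when limma gave an adjusted p under 0.05 over all 16755 genes together with a change of at least 1.5-fold.

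Features of the whole series bear on these values. *Cilk1*, listed under its older symbol *Ick*, had a log2 level of 3.53 ± 0.0751 (SD, n = 4) in wild type, 2.80 ± 0.0661 (n = 4) in *Cilk1*-/- and 2.64 ± 0.0317 (n = 3) in the compound mutant. Values per gene do not show the exon deletion itself. Wild-type and *Cilk1*-/- libraries that share a number were not independent, since the means of such pairs deviated from the overall mean with an SD of 0.0178 to 0.0304 over the 12270 genes with a value above 1 in every library, against 0.0784 to 0.11 for single libraries around their genotype mean. The fit without a block treats them as independent, so its p-values may be too small, and a fit that blocks on the number is given where it changes a call. That block also groups the compound mutant libraries by number. Their deviations showed no such tie to same-numbered libraries, with correlations between -0.117 and 0.256. The first compound mutant library stood apart from the others, at a distance of 48.5 from 0 on the first principal component against at most 11.2 in the other 10 libraries, so results that rest on it are also given without it.

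*Sostdc1* was highest in every wild-type library. It spans chromosome 12, positions 36314139 to 36318452 on the plus strand (GRCm38), and has 2 exons. The log2 levels were 7.36, 7.29, 7.34 and 7.35 in wild-type replicates 1 to 4. In *Cilk1*-/- replicates 1 to 4 they were 6.29, 6.77, 6.67 and 6.66. The 3 compound mutant libraries had 5.46, 6.36 and 6.24. All 4 *Cilk1*-/- and all 3 compound mutant libraries lay below every wild-type library, while the mutants overlapped each other, since compound mutant replicate 2 exceeded *Cilk1*-/- replicate 1. Over all genes, 10.7% had every *Cilk1*-/- library, 9.05% every compound mutant library and 3.15% every library of both mutants below every wild-type library.

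Turned back from the log2 scale, the mean normalized value of *Sostdc1* was 161 ± 3.49 (SD, n = 4) in wild type, 96.6 ± 13.3 (n = 4) in *Cilk1*-/- and 66.3 ± 20.4 (n = 3) in the compound mutant. The mutant means were 0.602 and 0.413 of the wild-type mean. The spread was unequal, with a coefficient of variation of 2.17% in wild type, 13.8% in *Cilk1*-/- and 30.7% in the compound mutant. *Sostdc1* was an abundant transcript in all genotypes, at rank 266 of all genes by mean level in wild type, rank 483 in *Cilk1*-/- and rank 846 in the compound mutant. In bulk tissue, fewer cells that express a gene and less RNA per cell cannot be told apart.

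**Figure D1:**
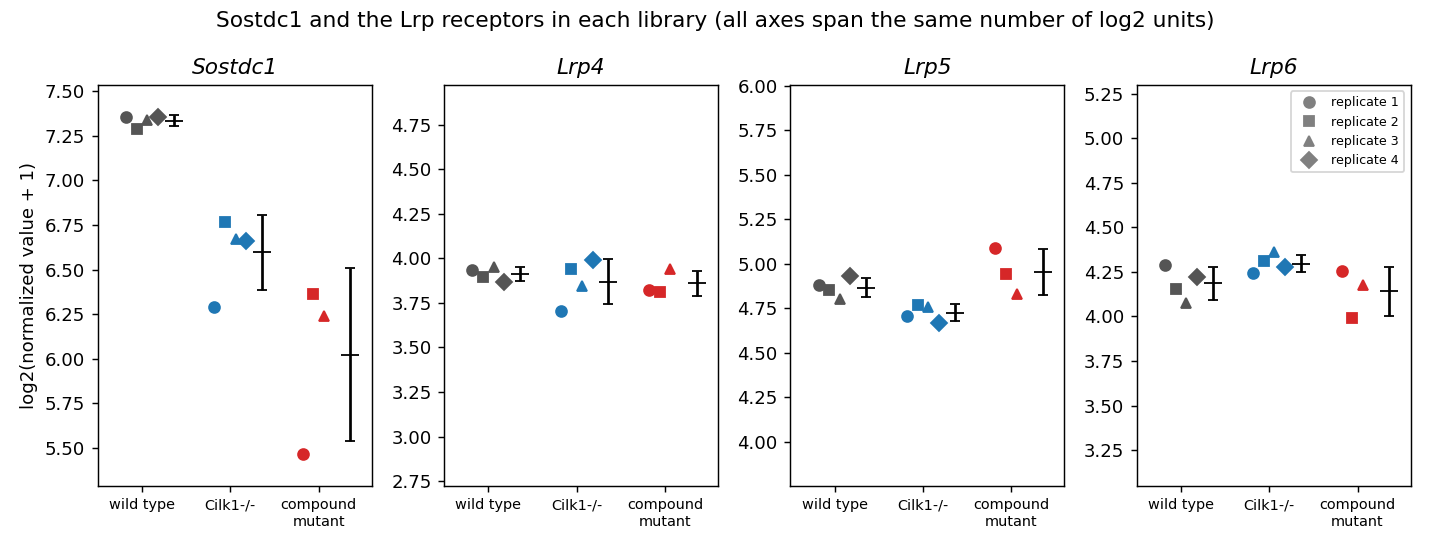
Log2(normalized value + 1) of *Sostdc1*, *Lrp4*, *Lrp5* and *Lrp6* in each library of the 3 genotypes. Symbols mark replicate numbers, bars show mean ± SD, and all axes span the same number of log2 units. *Sostdc1* lies between 7.29 and 7.36 in wild type and at 6.77 or lower in every mutant library, whereas the libraries of each *Lrp* gene lie within a narrow band.

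In the compound mutant, *Sostdc1* was called lower than in wild type, with a log2 fold change of -1.31 (95% interval -1.73 to -0.90, limma adjusted p = 0.00622). Of all genes, 0.633% were called lower in this comparison. Only 9 genes had a lower log2 fold change on this scale, which understates the changes of low genes and so favours abundant genes in such a rank. *Sostdc1* belongs to a list of genes that the study drew from these same samples, so its direction is not independent evidence. With the replicate number as a block, where 0.113% of genes were called lower, the change was -1.30 (adjusted p = 0.0341) and still called, and without compound mutant replicate 1 it was -1.03 (adjusted p = 0.00279). The call was lost when only these 2 genotypes were fitted (adjusted p = 0.0576), with a term for the 2 sets of libraries whose extraction notes differ (adjusted p = 0.0882) and when the block placed the compound mutant with pair 4 (adjusted p = 0.435). One set holds numbers 1 to 3 of wild type and *Cilk1*-/-, and the other holds number 4 of both and the compound mutant. The exact permutation test over libraries gave p = 0.0286 (two-sided), the smallest p that 3 against 4 libraries allow.

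*Cilk1*-/- gave a *Sostdc1* difference that stood at the edge of the call. The log2 fold change against wild type was -0.74 (95% interval -1.12 to -0.35), with an unadjusted p of 0.00147 and a limma adjusted p of 0.0545, so it was not called. The share of all genes called lower here was 0.215%, and 11.1% of genes were lower at an unadjusted p under 0.05. Between libraries of the same number, *Cilk1*-/- minus wild type was -1.07, -0.52, -0.67 and -0.70 on the log2 scale for numbers 1 to 4. All 4 pairs were lower, for which the exact permutation of signs within pairs gave p = 0.125, the smallest that 4 pairs allow.

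The call on *Sostdc1* in *Cilk1*-/- turned on how the spread was estimated. When only wild-type and *Cilk1*-/- libraries entered the limma fit, the same difference had an adjusted p of 0.00297, and of 0.0228 with the replicate block added, where 0.113% of genes were called lower. When all 3 genotypes shared one spread, the block gave an adjusted p of 0.140. Without compound mutant replicate 1, which enters the comparison only through the spread, the limma adjusted p was 0.00473, and without compound mutant replicates 2 and 3 in turn it was 0.0268 and 0.0371.

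Between the mutants, *Sostdc1* was not called, and 0.388% of genes were called lower. The compound mutant minus *Cilk1*-/- log2 fold change was -0.58 (95% interval -0.99 to -0.16, limma adjusted p = 0.109), and the exact permutation test gave p = 0.0857. Without compound mutant replicate 1 the difference was -0.30 (adjusted p = 0.175). It was called only without compound mutant replicate 2, at -0.75 with an adjusted p of 0.0421. The means were thus ordered wild type, *Cilk1*-/- and compound mutant, and the step between the mutants did not pass the test.

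**Figure D2:**
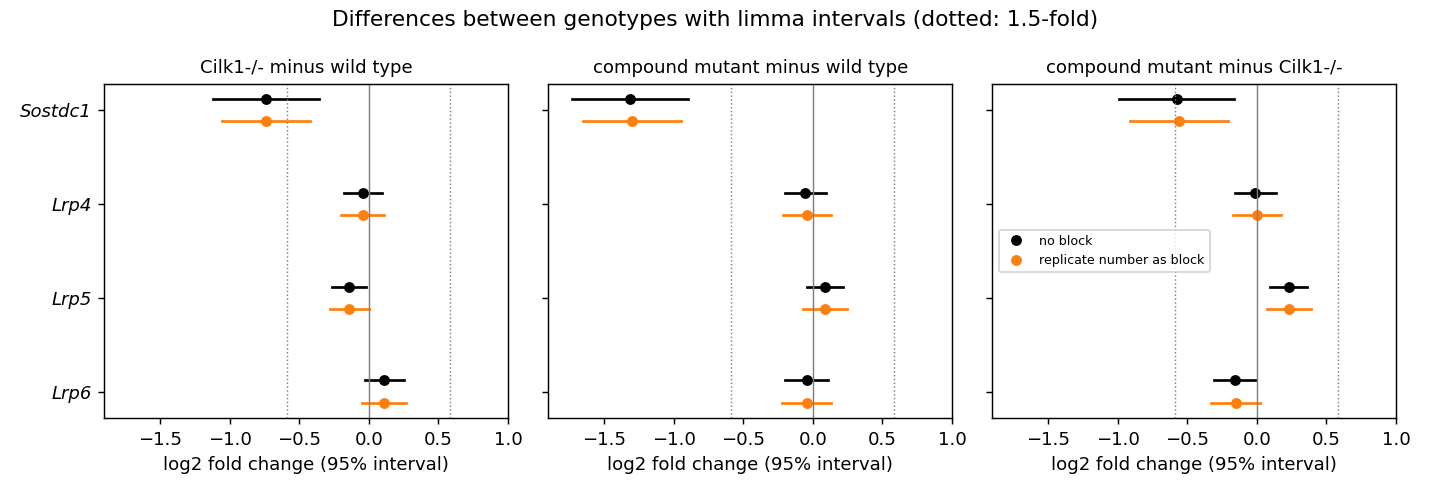
Log2 fold changes of the 4 genes in the 3 comparisons with 95% intervals from limma, without (black) and with (orange) the replicate number as a block. Dotted lines mark a 1.5-fold change. Only *Sostdc1* reaches beyond them, at -0.74 in *Cilk1*-/- and -1.31 in the compound mutant against wild type, and the intervals of the *Lrp* genes stay inside them.

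None of the 3 receptor genes was called in any comparison, where at most 0.633% of all genes were called lower or higher. *Lrp4* (chromosome 2, 91457511 to 91513779, plus strand, 38 exons in its principal transcript) had log2 levels of 3.94, 3.90, 3.95 and 3.87 in wild type. The *Cilk1*-/- libraries had 3.71, 3.94, 3.84 and 3.99, and the compound mutant libraries 3.82, 3.81 and 3.94. *Lrp4* thus overlapped among all 3 genotypes. Its log2 fold change was -0.04 (95% interval -0.18 to 0.09) in *Cilk1*-/- and -0.05 (-0.20 to 0.09) in the compound mutant against wild type, and -0.01 (-0.16 to 0.13) between the mutants. The limma adjusted p values were 0.743, 0.629 and 0.945. These intervals exclude a 1.5-fold change in either direction.

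*Lrp5* showed the clearest pattern among the receptors, though small. The gene lies on chromosome 19, 3584828 to 3686564, on the minus strand. Wild-type log2 levels were 4.88, 4.85, 4.80 and 4.93, *Cilk1*-/- levels were 4.71, 4.77, 4.76 and 4.67, and compound mutant levels were 5.09, 4.94 and 4.83. All *Cilk1*-/- libraries were below every library of the other 2 genotypes, and the compound mutant overlapped wild type. Groups that did not overlap in this direction were common, at 10.7% of all genes for *Cilk1*-/- below wild type, as above, and 7.74% for the compound mutant above *Cilk1*-/-.

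The *Lrp5* difference of *Cilk1*-/- from wild type was -0.14 (95% interval -0.26 to -0.02, limma adjusted p = 0.181), and the exact permutation test gave p = 0.0286. Within pairs of one number all 4 differences were lower, and the exact permutation of signs gave p = 0.125. With only these 2 genotypes fitted the limma adjusted p was 0.0414, and 0.326 with the replicate block in that fit. The compound mutant stood 0.23 above *Cilk1*-/- (95% interval 0.10 to 0.36, adjusted p = 0.0614) and 0.09 above wild type (-0.04 to 0.22, adjusted p = 0.356). None of the 3 was called, and all were under 1.5-fold, with 0.155% of genes called higher between the mutants. The difference between the mutants had an adjusted p of 0.0141 without compound mutant replicate 3 and of 0.241 with the replicate block. Compound mutant replicate 1 had the highest *Lrp5* level of all libraries. Without it the compound mutant stood 0.16 above *Cilk1*-/- (limma adjusted p = 0.128) and 0.02 above wild type (adjusted p = 0.854).

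*Lrp6* lies on chromosome 6, 134446476 to 134566965, on the minus strand. Its log2 levels were 4.29, 4.16, 4.08 and 4.22 in wild type. In *Cilk1*-/- they were 4.24, 4.31, 4.36 and 4.28, and in the compound mutant 4.26, 3.99 and 4.18. The groups overlapped in each comparison. Log2 fold changes were 0.11 (95% interval -0.03 to 0.25) in *Cilk1*-/- and -0.05 (-0.20 to 0.11) in the compound mutant against wild type, and -0.16 (-0.31 to -0.01) between the mutants, with limma adjusted p values of 0.354, 0.701 and 0.205.

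Among the 4 genes, the order of level was *Sostdc1*, *Lrp5*, *Lrp6* and *Lrp4* in all 11 libraries. Within a library, *Lrp5* exceeded *Lrp6* by 0.39 to 0.95 on the log2 scale and *Lrp6* exceeded *Lrp4* by 0.13 to 0.54. *Sostdc1* exceeded *Lrp5* by 2.47 ± 0.0513 (SD, n = 4) in wild type, 1.87 ± 0.197 (n = 4) in *Cilk1*-/- and 1.07 ± 0.601 (n = 3) in the compound mutant. The lowest gap, 0.37, was in compound mutant replicate 1.

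The summed normalized value of the 3 *Lrp* genes was 59.5 ± 1.93 (SD, n = 4) in wild type, 57.8 ± 1.92 (n = 4) in *Cilk1*-/- and 60.3 ± 3.56 (n = 3) in the compound mutant. *Sostdc1* per unit of this sum was 2.70 ± 0.0760 in wild type, 1.67 ± 0.182 in *Cilk1*-/- and 1.12 ± 0.392 in the compound mutant. The lowest wild-type ratio was 2.65, the highest in *Cilk1*-/- was 1.82 and the highest in the compound mutant was 1.41. The lowest ratio, 0.671, belonged to compound mutant replicate 1. The ratio follows from the *Sostdc1* values above and was not tested on its own.

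Within the sum, the share of *Lrp5* was 47.4% ± 0.920 in wild type, 44.1% ± 1.37 in *Cilk1*-/- and 49.9% ± 2.81 in the compound mutant. The share of *Lrp6* was 28.9% ± 1.05, 32.3% ± 0.669 and 27.6% ± 1.63 in the same order. *Lrp4* made up 23.7% ± 1.20, 23.6% ± 1.76 and 22.5% ± 1.96. The *Cilk1*-/- libraries thus had both the lowest *Lrp5* shares and the highest *Lrp6* shares of all 11 libraries. These shares were not tested.

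**Figure D3:**
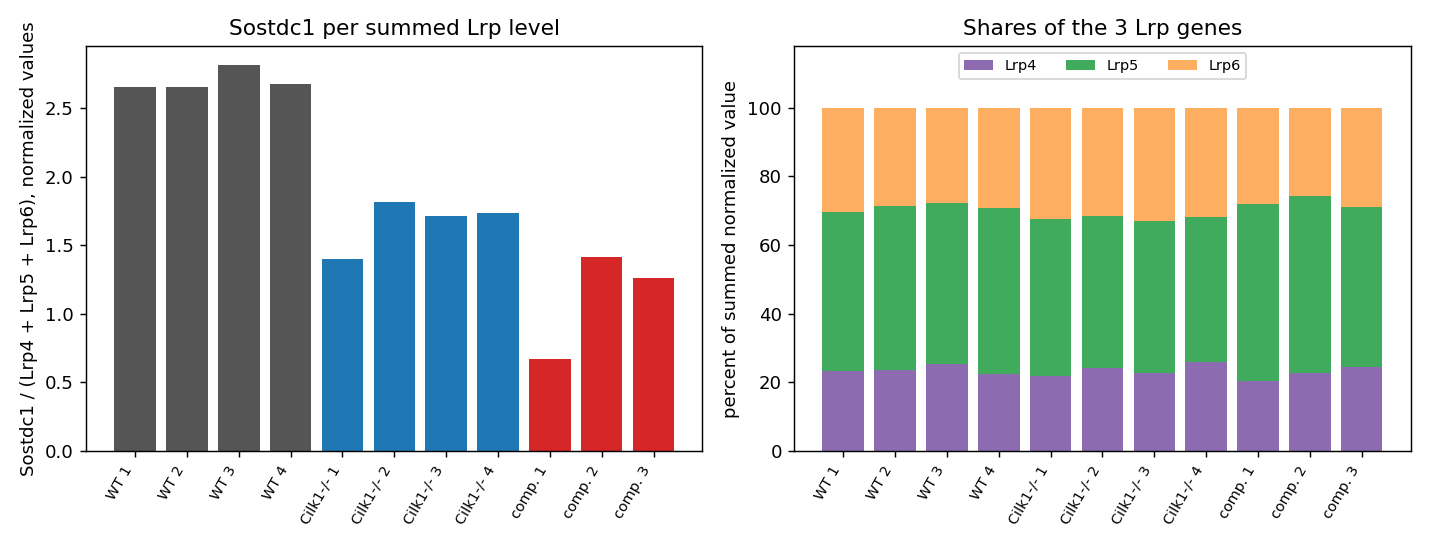
Left, normalized *Sostdc1* value divided by the sum of *Lrp4*, *Lrp5* and *Lrp6* in each library. Right, percent of that sum contributed by each *Lrp* gene. The ratio is between 2.65 and 2.81 in wild type and at most 1.82 in the mutants, while *Lrp5* is the largest share in every library.

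The tissue was checked against markers, and dental epithelium and mesenchyme markers were present in all libraries. The mean log2 level of 11 dental epithelium markers was 5.59 to 5.74 in wild type, 5.56 to 5.83 in *Cilk1*-/- and 5.23 to 5.77 in the compound mutant. For 10 dental mesenchyme markers it was 6.24 to 6.38, 6.15 to 6.30 and 5.64 to 6.33. Of the 11 epithelium markers, 1 was called higher in *Cilk1*-/-, namely the keratin gene *Krt15* (log2 fold change 0.63, limma adjusted p = 0.0436), against 0.155% of all genes, and the call was lost with the replicate block (adjusted p = 0.0846). *Krt15* was called lower in the compound mutant than in *Cilk1*-/- (-1.06, adjusted p = 0.00933, or 0.0459 with the block). No mesenchyme marker was called in any comparison. In the compound mutant against wild type, 9 of 10 mesenchyme markers were lower, with a median log2 fold change of -0.39. Of the 11 epithelium markers 8 were lower there, with a median of -0.21, beside -0.00164 over all genes. In *Cilk1*-/- the medians were -0.10 for mesenchyme and 0.11 for epithelium. The part of these shifts in the *Sostdc1* values was not tested. The most abundant marker of epithelium was *Krt5*, at 8.75 in wild type, and that of mesenchyme was *Barx1*, at 7.68.

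*Sostdc1* was also set against these markers. *Sostdc1* minus the epithelium mean was 1.69 ± 0.0823 (SD, n = 4) in wild type, 0.85 ± 0.0948 (n = 4) in *Cilk1*-/- and 0.54 ± 0.355 (n = 3) in the compound mutant. *Sostdc1* minus the mesenchyme mean was at least 0.91 in wild type, 0.03 to 0.57 in *Cilk1*-/- and -0.17 to 0.28 in the compound mutant. Neither mutant overlapped wild type on either measure. These differences follow largely from the *Sostdc1* values above and were not tested on their own.

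Compound mutant replicate 1, the library lowest in *Sostdc1*, also had the lowest epithelium mean (5.23) and the lowest mesenchyme mean (5.64). It had the highest mean of 10 neuron markers, 3.85 against 1.73 to 2.01 in the other compound mutant libraries. The neuron means were 1.14 to 1.59 in wild type and 1.59 to 2.10 in *Cilk1*-/-. In compound mutant replicate 1 the mean of 10 osteoblast and cartilage markers was 4.47, the highest of all, against 2.59 to 3.68 elsewhere. The neuron marker with the highest mean, *Gap43*, was at 4.62 in wild type and 4.91 in the compound mutant, and *Alpl*, the highest of the osteoblast and cartilage markers, at 5.80 and 5.98. Of the 10 neuron markers, 2 were called higher in the compound mutant than in wild type, where 0.615% of all genes were, namely *Tubb3* (4.17 in wild type and 5.67 in the compound mutant, limma adjusted p = 0.0268) and *Isl1* (log2 fold change 0.95, adjusted p = 0.0190). Both calls were lost with the replicate block (adjusted p = 0.127 and 0.0971). The part of these cells in its *Sostdc1* value was not tested. Skeletal muscle marker means were 0.97 to 1.88 in wild type, 1.49 to 2.51 in *Cilk1*-/- and 0.79 to 0.91 in the compound mutant. Against wild type, none of the 10 was lower in *Cilk1*-/- (median 0.55) and all 10 were lower in the compound mutant (median -0.42). Of 10 muscle markers, 3 were called lower in the compound mutant than in *Cilk1*-/-, against 0.388% of all genes, with log2 fold changes of -2.35 for *Actc1*, -1.71 for *Acta1* and -1.52 for *Myh3*. With the replicate block limma gave these adjusted p values of 0.181, 0.218 and 0.192. Without compound mutant replicate 1, 1 of the 10 muscle markers was called lower in this comparison. Erythroid marker means ranged from 4.79 to 5.63, except for 3.52 in compound mutant replicate 3. *Mylpf*, the muscle marker with the highest mean over the 11 libraries, was at 2.28 in wild type and 1.81 in the compound mutant, 1 of 10 muscle markers never exceeded 0.5, and the leading erythroid marker *Hba-a1* was at 10.8 in wild type and 10.3 in the compound mutant.

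**Figure D4:**
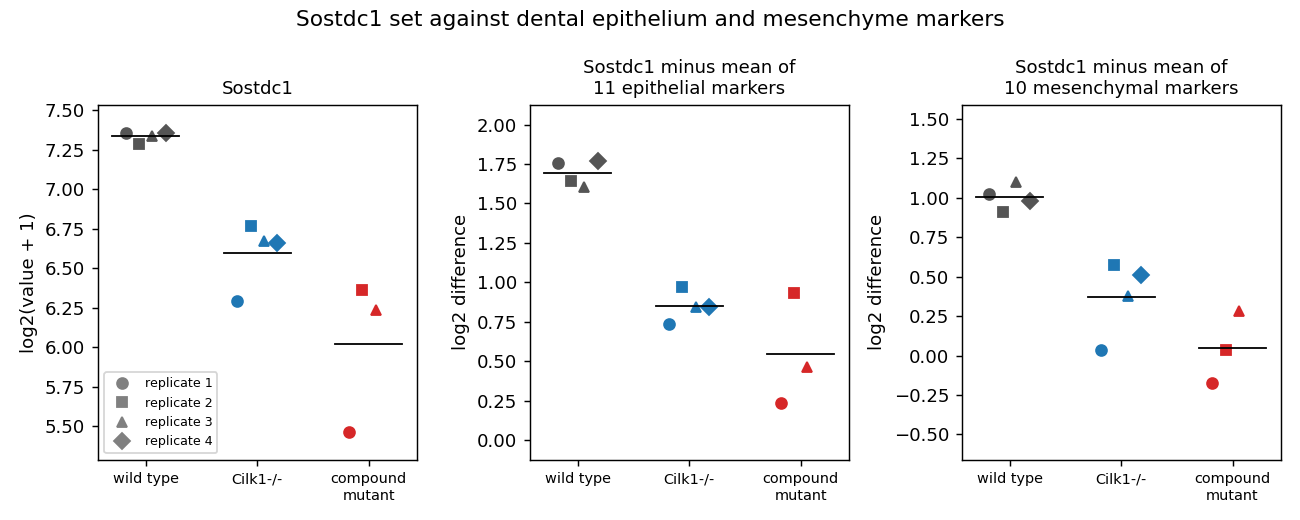
*Sostdc1* in each library as log2(value + 1), and the same value minus the mean log2 level of 11 epithelial or 10 mesenchymal markers. Points are libraries and lines are means. The wild-type libraries stay above all mutant libraries in each panel, where the highest mutant values are 0.97 against epithelium and 0.57 against mesenchyme.

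Other genes of the same pathways were described from 10 lists. In *Cilk1*-/- against wild type, limma called none of the genes in these lists. Calls were rare over all genes too, at 0.215% lower and 0.155% higher. Their medians lay between -0.07 and 0.12 on the log2 scale, beside 0.0032 over all genes. Several genes passed the adjusted p in the compound mutant without reaching 1.5-fold, and they are given with the list they belong to. With the replicate block their adjusted p values were 0.107 for *Twsg1*, 0.155 for *Smad6* and 0.127 for both *Nkd1* and *Fzd10*.

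Among secreted BMP antagonists, the class to which Sostdc1 itself belongs, 2 of 12 were called lower in the compound mutant against wild type, where 0.633% of all genes were, and 0 higher. The list's median was -0.03, beside -0.00164 over all genes. *Sost*, which encodes sclerostin, the closest relative of Sostdc1, had 0.93 ± 0.224 (SD, n = 4) in wild type and 0.26 ± 0.227 (n = 3) in the compound mutant, a log2 fold change of -0.67 (limma adjusted p = 0.0357). *Chrdl1*, a chordin-like antagonist, had -0.73 (adjusted p = 0.0493). *Twsg1*, which binds BMPs with chordin, had -0.35 (adjusted p = 0.00911). With the replicate block neither call held, at adjusted p values of 0.157 for *Sost* and 0.162 for *Chrdl1*. Without compound mutant replicate 1, only *Chrdl1* was called (-0.87, adjusted p = 0.0429). Leaving out 1 library at a time reduced the 2 calls to 0 or 1 in 10 of 11 cases.

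The same genes in *Cilk1*-/- had log2 fold changes of -0.58 for *Sost* (limma adjusted p = 0.0638) and 0.06 for *Chrdl1* (adjusted p = 0.903). *Sost* was at a low level in every library, at most 1.12. Both mutants are compared with the same wild-type libraries, so these values are not independent of those in the compound mutant.

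Of the 10 BMP ligand and receptor genes, 1 was called higher in the compound mutant, against 0.615% of all genes. This was *Bmp2*, a ligand, at 2.17 ± 0.113 (SD, n = 4) in wild type and 3.12 ± 0.586 (n = 3) in the compound mutant, a log2 fold change of 0.95 (limma adjusted p = 0.0302). Its lowest compound mutant library, at 2.77, was above the highest wild-type library, at 2.34, as was so for 8.92% of all genes. The call was lost with the replicate block (adjusted p = 0.136) and when any 1 wild-type library was left out, and held without compound mutant replicate 1 (1.13, adjusted p = 0.0233). *Bmp4* had -0.29 (adjusted p = 0.174) in *Cilk1*-/- and -0.31 (adjusted p = 0.139) in the compound mutant. Of the 10 BMP readout genes none was called, and *Smad6*, an inhibitor of BMP signalling that the pathway itself induces, had 0.35 in the compound mutant (adjusted p = 0.0299). The median of these 10 genes there was 0.24, beside -0.00164 over all genes, and 2 of the 10 were lower than in wild type. This shift of the list was not tested.

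On the Wnt side, no Wnt readout gene was called among 10. In the compound mutant, 0.633% of all genes were called lower and 0.615% higher. The largest log2 fold change in *Cilk1*-/- was -0.69 for *Dkk1* (limma adjusted p = 0.0826), which had 0.02 in the compound mutant (adjusted p = 0.967). The largest in the compound mutant was 0.59 for *Ccnd1* (adjusted p = 0.0519), which had 0.27 in *Cilk1*-/- (adjusted p = 0.326). *Nkd1*, a feedback inhibitor of Wnt signalling, had a log2 fold change of 0.37 in the compound mutant (limma adjusted p = 0.0240), under 1.5-fold. *Axin2*, the most used readout of canonical Wnt activity, had 0.18 (adjusted p = 0.373) in *Cilk1*-/- and 0.07 (adjusted p = 0.718) in the compound mutant. *Lef1* had 0.23 (adjusted p = 0.437) and 0.05 (adjusted p = 0.865).

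The partners of the receptors at the membrane were likewise not called in the fit of all libraries. Calls were rare over all genes too, at most 0.633% in either direction in any comparison. None of 14 Frizzled and other Wnt receptor genes passed both thresholds, and *Fzd10* had -0.41 in the compound mutant (limma adjusted p = 0.0252) and -0.30 in *Cilk1*-/- (adjusted p = 0.0730). Among 13 genes of the complex that Lrp5 and Lrp6 recruit, the casein kinase gene *Csnk1g1* had the smallest p, at 0.15 in *Cilk1*-/- (adjusted p = 0.0750). Of 10 R-spondin, Lgr and receptor turnover genes, *Lgr6* had -0.32 in *Cilk1*-/- (adjusted p = 0.107), and without compound mutant replicate 1 a single one, *Lgr4*, was called lower in the compound mutant (-0.75, adjusted p = 0.0126). *Mesdc2*, a chaperone for Lrp5 and Lrp6, had -0.09 in *Cilk1*-/- (adjusted p = 0.255), and none of the 4 listed chaperone and co-receptor genes was called.

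For *Lrp4*, 7 genes of agrin signalling were listed and none was called, beside at most 0.633% of all genes in either direction. *Agrn*, the gene of agrin itself, had log2 fold changes of 0.08 in *Cilk1*-/- (limma adjusted p = 0.657) and 0.11 in the compound mutant (adjusted p = 0.471). *Chrng*, an acetylcholine receptor subunit, had -0.21 in the compound mutant (adjusted p = 0.103). Among 9 other genes of the Lrp family none was called. *Lrp1b* had the smallest p, at -0.12 in the compound mutant (adjusted p = 0.0635) and -0.05 in *Cilk1*-/- (adjusted p = 0.453), and its level was near 0, with a mean of 0.18 in wild type.

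**Figure D5:**
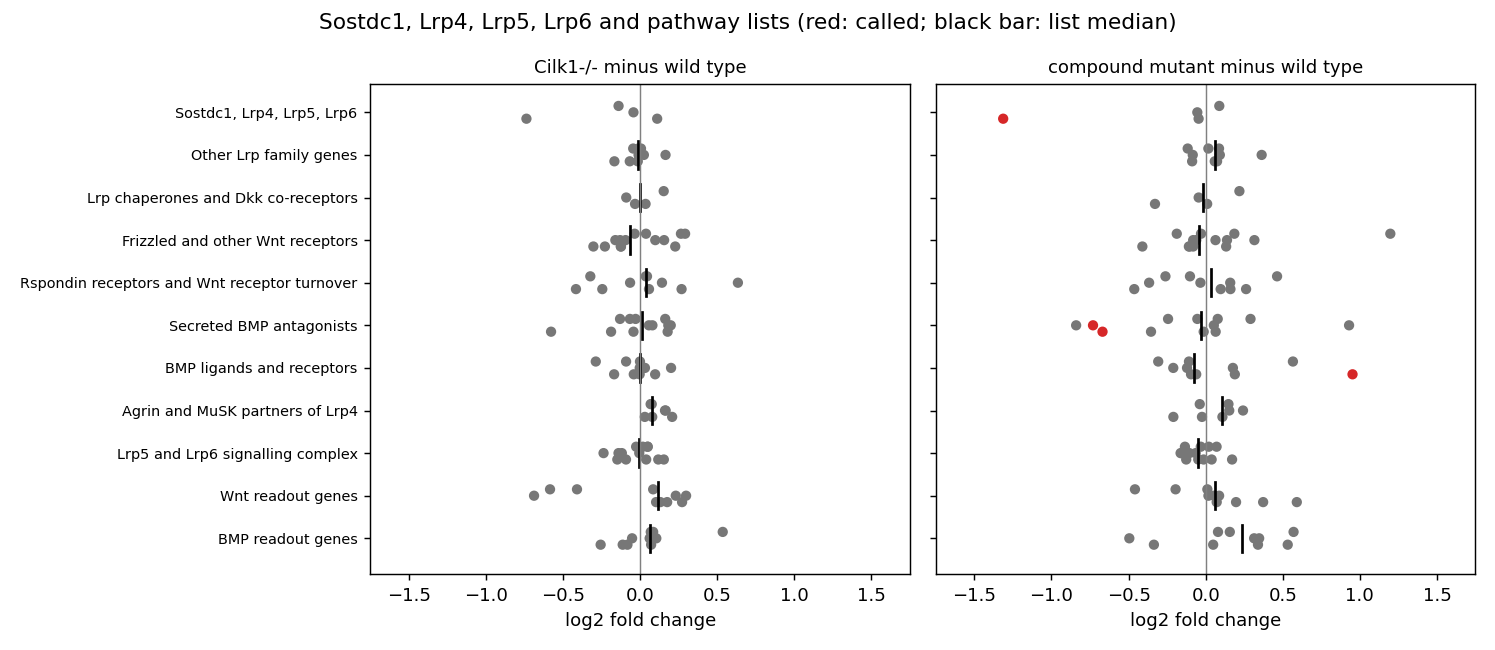
Log2 fold changes of the 4 genes (top) and of 10 pathway lists in *Cilk1*-/- and the compound mutant against wild type. Points are genes, red points were called, and black bars are list medians. *Sostdc1* at -1.31 is the lowest point of the compound mutant panel, and the 3 other red points are *Sost*, *Chrdl1* and *Bmp2*.

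The gene whose values were most like those of *Sostdc1* over the 11 libraries was *Gli1*, a transcription factor of the Hedgehog pathway, with Pearson's r = 0.989 among 13027 genes with a mean of at least 1 (0.980 without compound mutant replicate 1). *Adcy7* (0.979), *Kntc1* (0.968), *Fzd10* (0.956) and *Fancm* (0.956) came next. Without compound mutant replicate 1 their r values were 0.979, 0.957, 0.917 and 0.918. *Adcy7* then kept rank 2, while *Kntc1* fell to rank 8, *Fzd10* to rank 40 and *Fancm* to rank 37. These correlations describe 11 libraries that share genotype and dissection, and they hold the genotype differences. *Gli1* means were 6.55 in wild type, 5.65 in *Cilk1*-/- and 5.12 in the compound mutant, and its log2 fold changes were -0.90 (limma adjusted p = 0.0343, or 0.149 with the replicate block) and -1.43 (adjusted p = 0.00500, or 0.0473 with the block) beside -0.74 and -1.31 for *Sostdc1*.

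The receptor genes were most like other genes. *Lrp4* was closest to *Epha1* (r = 0.927), *Epdr1* (0.903) and *Orai2* (0.885). *Lrp5* was closest to *Tctn2* (0.996), *Actr1b* (0.979) and *Slc35c1* (0.975), and *Lrp6* to *Syne2* (0.969), *Pkd1* (0.962) and *Csgalnact2* (0.945). Between *Sostdc1* and the receptors, r was 0.44 with *Lrp4*, -0.296 with *Lrp5* and -0.0562 with *Lrp6*. The value for *Lrp5* was 0.346 without compound mutant replicate 1, so its sign rests on that library.

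Neighbouring genes were read for each of the 4 loci in the same assembly. The nearest listed genes to *Sostdc1* were *Ankmy2*, 117 kb away on one side, and *Ispd*, 63.0 kb away on the other. *Ankmy2* had log2 fold changes of -0.09 (limma adjusted p = 0.308) in *Cilk1*-/- and -0.04 (adjusted p = 0.666) in the compound mutant. *Ispd* had -0.03 (adjusted p = 0.904) and -0.21 (adjusted p = 0.235). Beside the receptor genes, *Ckap5* next to *Lrp4* had -0.19 in the compound mutant (adjusted p = 0.0359), and *1810055G02Rik* next to *Lrp5* stood 0.25 above *Cilk1*-/- in the compound mutant (adjusted p = 0.0388), both under 1.5-fold.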

How the data were processed

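Reads were mapped to mm10 with HISAT2 2.0.5 and counted per gene with featureCounts 1.5.0-p3, per the submitters' processing notes. The authors deposited 1 table of log2 values for 16755 genes and 11 libraries, which behave as log2(value + 1) of a value the authors normalized, probably FPKM. Counts and depth were not used here. One limma 3.58.1 model (lmFit and eBayes with trend and robust, R 4.3.3) covered the 3 genotypes without covariates, with the Benjamini-Hochberg adjustment over all genes. It was tested on simulated data with independent libraries. These lack the tie between same-numbered libraries, so the simulation cannot tell whether the p-values hold here. Exact permutation tests over libraries are two-sided.

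Members and lists were chosen with earlier results of these data known. Genes named from each list are those called (up to 3) or, if none, the one with the smallest p. *Twsg1*, *Bmp4*, *Axin2*, *Lef1*, *Dkk1*, *Ccnd1*, *Agrn*, *Lgr4*, *Krt15*, *Tubb3*, *Isl1*, *Actc1*, *Acta1* and *Myh3* fall outside this rule and were named after their values were seen. A few listed genes are not reported here. For likeness, the highest Pearson correlations were taken. Positions are from GENCODE vM21 (GRCm38). The numbers tie wild-type and *Cilk1*-/- libraries, since deviations from the genotype means of same-numbered libraries correlated at -0.741, -0.892, -0.848 and -0.792 over 16755 genes. Compound mutant libraries entered none of these, at between -0.117 and 0.256. Alternatives were the replicate block (also with the compound mutant in pair 4), the set of libraries (the 2 versions of the extraction notes in the labels), only the 2 genotypes compared, moderation, a filter on low values, a pseudocount of 0.1, quantile normalization, median centring, no fold minimum and leaving out each library. The block with only the 2 genotypes compared was chosen after seeing the data. Python 3.11.15 and matplotlib 3.10.9 were used.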

Additional observations from a re-analysis of the deposited data

How the results depend on the processing

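*Sostdc1* kept its direction under every alternative in all 3 comparisons. In *Cilk1*-/- against wild type (-0.74, limma adjusted p = 0.0545) it passed the threshold with only the 2 genotypes compared (-0.74, adjusted p = 0.00297), with the replicate block in that fit (-0.74, adjusted p = 0.0228) and with genes of a mean of at least 1 (-0.74, adjusted p = 0.0478). Leaving out each library gave -0.79 to -0.64, with adjusted p values from 0.00473 to 0.143, of which 8 of 11 were 0.05 or more. In the compound mutant against wild type the call was lost with the replicate block that places the compound mutant in pair 4 (-1.35, adjusted p = 0.435), with the set of libraries as a term (-1.35, adjusted p = 0.0882) and with only the 2 genotypes compared (-1.31, adjusted p = 0.0576), and the cause was not tested. Leaving out each library gave -1.48 to -1.03, called each time. Between the mutants leaving out each library gave -0.75 to -0.30.

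*Lrp4* between the mutants turned positive with the replicate block (0.0021), and leaving out each library gave -0.0657 to 0.0300. Leaving out each library gave -0.0841 to 0.0116 for *Lrp4* in *Cilk1*-/- and -0.103 to 0.0298 for *Lrp6* in the compound mutant against wild type. None of these was called under any alternative, and neither was *Lrp5*. The replicate block changed no other call on the 4 genes. In the compound mutant against wild type, 2 secreted BMP antagonists were called, and 0 with the replicate block, with the compound mutant in pair 4, with the set of libraries as a term and with only the 2 genotypes compared. The 1 call among BMP ligands and receptors was lost under the same 4 alternatives. Fewer than 2 secreted BMP antagonists were called in 7 of the 9 alternatives counted besides leaving out a library. Over all genes, 36 were called lower in *Cilk1*-/- and between 2 and 231 under the alternatives, and in the compound mutant 106 and between 0 and 629. Genes called higher were 26 (2 to 178) and 103 (0 to 476). Between the mutants 65 were lower (0 to 360) and 26 higher (0 to 224). Neither scaling moved the median of all genes by more than 0.1 on the log2 scale. Depth, and with it counting error, is unknown.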
